A study of Drosophila melanogaster with 18 samples.

Results

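The chorion is the outer shell of the fly egg, and 9 genes that encode chorion proteins in clusters on the X and the third chromosome were followed here across 18 whole-fly libraries. The 9 are the listed genes Cp36, Cp38, Cp16, Cp19, Cp15, Cp18, Cp7Fa, Cp7Fb and Cp7Fc, found by symbol among the 17869 genes of the count table. All 9 had a row, and all 9 passed the filter on low counts. Whole flies of the white-eyed Drosophila melanogaster strain w1118 were taken at day 2 after feeding on 1 µM cycloheximide (CHX), at day 2 after feeding on vehicle, or at day 0 of adulthood, with 6 libraries in each group. All groups share the genotype. By the study's methods, flies were raised on a cornmeal medium and moved to sugar and yeast food once adult, so that the day 2 groups had fed on the adult food for longer than day 0 flies. CHX, which was mixed into the food, blocks the elongation step of protein translation (PT). The study concerned the rise of PT in early adulthood, which CHX was fed to prevent. The labels give no sex. They do not state whether the libraries of 1 group were grown as separate cultures, so p-values reflect only how far these libraries differ, and that may be technical.

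Chorion proteins are made by the somatic follicle cells that surround the oocyte, in the last stages of egg formation, after the vitelline membrane has been laid down. Before the genes are switched on, follicle cells fire the replication origins within both clusters again and again, so that the gene copies rise above those of the rest of the genome. The genes are then transcribed in a fixed order. Cp36 and Cp38 are early genes, Cp16 and Cp19 are expressed in the middle of the period and Cp15 and Cp18 are late. Cp7Fa, Cp7Fb and Cp7Fc are further chorion genes of the X cluster and were put in no stage class here.

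The 5 genes of the X cluster lie on the plus strand within 12424 bases of build BDGP6. They are, in order, Cp7Fa (FBgn0014464, X from 8470888 to 8473087), Cp7Fb (FBgn0014465, X from 8473837 to 8476071), Cp7Fc (FBgn0014466, X from 8477117 to 8478320), Cp36 (FBgn0000359, X from 8479319 to 8480523) and Cp38 (FBgn0000360, X from 8481837 to 8483311). The 4 genes of the third chromosome cluster lie on the plus strand within 5809 bases of arm 3L. These are Cp18 (FBgn0000357, 3L from 8726791 to 8727613), Cp15 (FBgn0000355, 3L from 8728481 to 8729066), Cp19 (FBgn0000358, 3L from 8729865 to 8730604) and Cp16 (FBgn0000356, 3L from 8731944 to 8732599). No member shares exon bases with another annotated gene on either strand.

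Libraries held 24033830 to 38519240 counts in CHX flies, 21495631 to 27217129 in vehicle flies and 27180491 to 37879190 in day 0 flies. Levels are CPM, counts scaled to the library total, after adjustment by TMM, whose factors were 0.823 to 0.929 in CHX flies, 1.235 to 1.313 in vehicle flies and 0.892 to 0.916 in day 0 flies. Vehicle libraries differed from both other groups over much of the transcriptome, and marker lists for other tissues moved as well. The summed level of 10 muscle genes was 70714 to 83367 CPM in CHX flies, 1255 to 2024 CPM in vehicle flies and 66167 to 77969 CPM in day 0 flies, with all 10 lower in vehicle than in day 0 flies. Muscle, a tissue that whole flies are rich in, was thus scarcely represented in the transcripts of vehicle libraries, all of which are labelled as whole fly. None of 11 genes of the male reproductive tract and testis had enough counts to be tested, 2 of them had no count in any library, and their summed level was at most 0.685 CPM in CHX flies, 0.465 CPM in vehicle flies and 8.54 CPM in day 0 flies. In such whole-body libraries, fewer cells of a type and less RNA per cell cannot be told apart, and the part of these marker lists in the results was not tested.

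The transcripts of the 9 genes were abundant in vehicle flies, present at a low level in day 0 flies and almost absent from CHX flies. Together they had 19 to 48 counts per library in CHX flies, 160572 to 433010 in vehicle flies and 3108 to 8075 in day 0 flies. That is 7.62e-05% to 0.000162% of all counts in CHX flies, 0.612% to 1.63% in vehicle flies and 0.0112% to 0.0213% in day 0 flies. For each of the 9 genes, the 6 libraries of each group lay apart from those of both other groups. Over all 11051 features tested, vehicle libraries lay wholly above day 0 libraries for 34.3%, CHX libraries wholly below vehicle libraries for 33.5% and CHX libraries wholly below day 0 libraries for 0.986%.

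**Figure D1:**
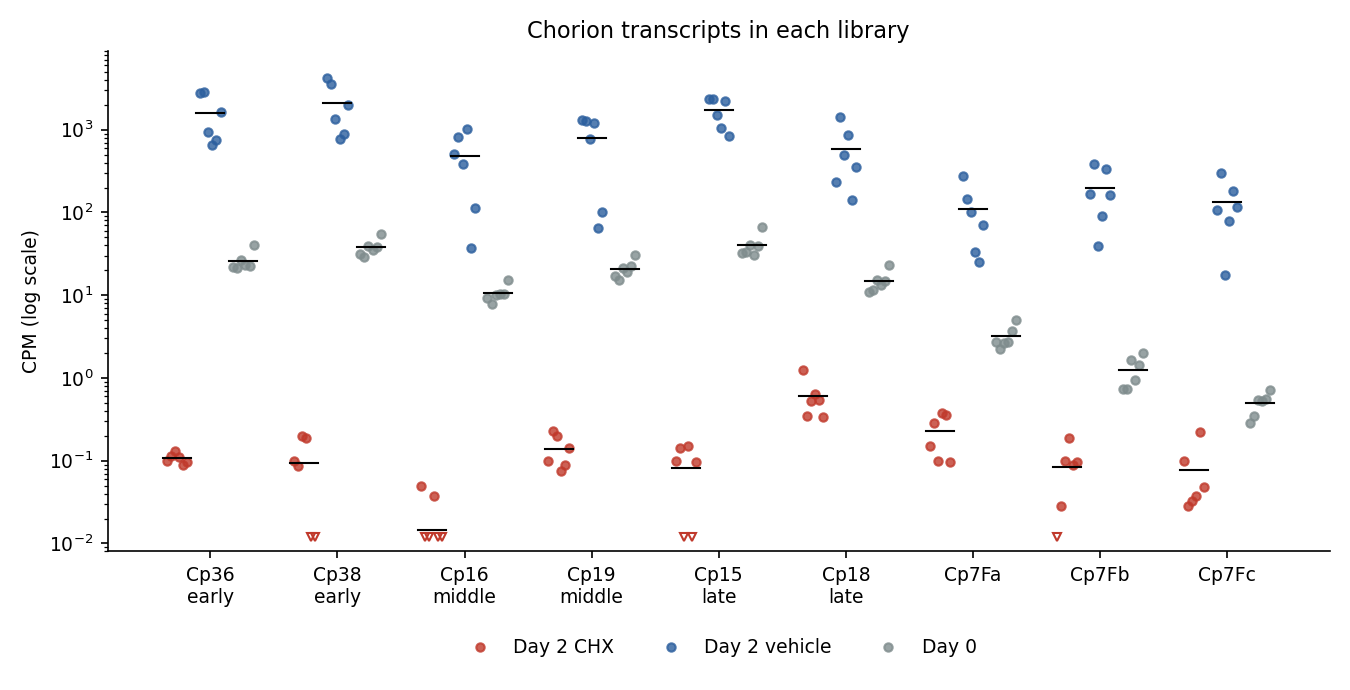
CPM of each chorion gene (log axis), 1 point per library, in day 2 CHX, day 2 vehicle and day 0 flies (6 libraries each), with the group mean as a black line and libraries with no count as open triangles at the bottom. The 3 groups do not overlap for any of the 9 genes, with CHX libraries lowest and vehicle libraries highest.

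The comparison of vehicle with day 0 flies asks how the genes changed over the first days of adult life. All 9 rose, with a median log2 fold change of 5.49 against -0.0043 over the 11051 features tested. In this comparison 41.8% of all features were called higher, so that a call alone was common, and the members ranked from 2 to 54 among the 11051 fold changes. The split of all calls depended on the scaling, with 50.4% of them higher under TMM and 63.5% under library sizes only, which moved the median of all features to 0.49 and that of the members to 5.98.

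Among the early genes, Cp36 had a lowest, median and highest level of 646, 1295 and 2852 CPM in vehicle flies, against 21.3, 22.9 and 40.3 CPM in day 0 flies. Cp38 had 767, 1657 and 4202 CPM in vehicle flies, against 29.1, 36.6 and 54.2 CPM in day 0 flies. Even the lowest vehicle library was thus well above the highest day 0 library for both. The log2 fold change was 5.85 ± 0.38 (SE) for Cp36 and 5.66 ± 0.42 for Cp38, with adjusted p values of 1.35e-10 and 1.28e-09 by the quasi-likelihood test of edgeR.

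The middle genes had the widest range in vehicle flies of all 9 when the highest library is divided by the lowest, at 27.1-fold for Cp16 and 20.2-fold for Cp19, although the early genes spanned more CPM. Cp16 had 37.4, 446 and 1012 CPM in vehicle flies, against 7.79, 10.2 and 15.3 CPM in day 0 flies. Cp19 had 65.4, 989 and 1323 CPM in vehicle flies, against 15.2, 20.1 and 30.6 CPM in day 0 flies. For these genes the lowest vehicle libraries came nearer to the day 0 range, though without reaching it. The log2 fold change was 5.49 ± 0.64 for Cp16 and 5.10 ± 0.65 for Cp19, with edgeR adjusted p values of 5.7e-07 and 1.6e-06.

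The late gene Cp15 was the steadiest of the 9 in vehicle flies. It had 828, 1858 and 2373 CPM in vehicle flies, against 30.8, 36.5 and 67.5 CPM in day 0 flies, a log2 fold change of 5.38 ± 0.32 (adjusted p = 3.59e-11, edgeR). Cp18 had 142, 427 and 1410 CPM in vehicle flies, against 11.1, 14.2 and 23.4 CPM in day 0 flies, a log2 fold change of 5.26 ± 0.52 (adjusted p = 6.59e-08, edgeR). The log2 fold changes of the 6 early, middle and late genes therefore fell between 5.10 and 5.85, and the ranges of 1 SE around them overlapped across the stage classes.

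The other genes of the X cluster spread more widely. Cp7Fa had 25.0, 85.9 and 279 CPM in vehicle flies, against 2.27, 2.705 and 5.06 CPM in day 0 flies, the smallest log2 fold change of the 9 at 4.80 ± 0.51 (adjusted p = 1.81e-07, edgeR). Cp7Fb had 39.0, 165 and 390 CPM in vehicle flies, against 0.735, 1.19 and 1.98 CPM in day 0 flies. Cp7Fc had 17.6, 113 and 301 CPM in vehicle flies, against 0.286, 0.535 and 0.711 CPM in day 0 flies. Cp7Fb and Cp7Fc stood apart from their neighbours in the cluster, with log2 fold changes of 7.32 ± 0.56 and 8.05 ± 0.62 (adjusted p = 2.61e-09 and 2.83e-09, edgeR). Per kilobase of exon, they had the lowest levels of the 9 in day 0 flies. Within each set of 3 vehicle and 3 day 0 libraries with the same style of name (with or without a hyphen, a difference that the labels do not explain), all 9 again rose.

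**Figure D2:**
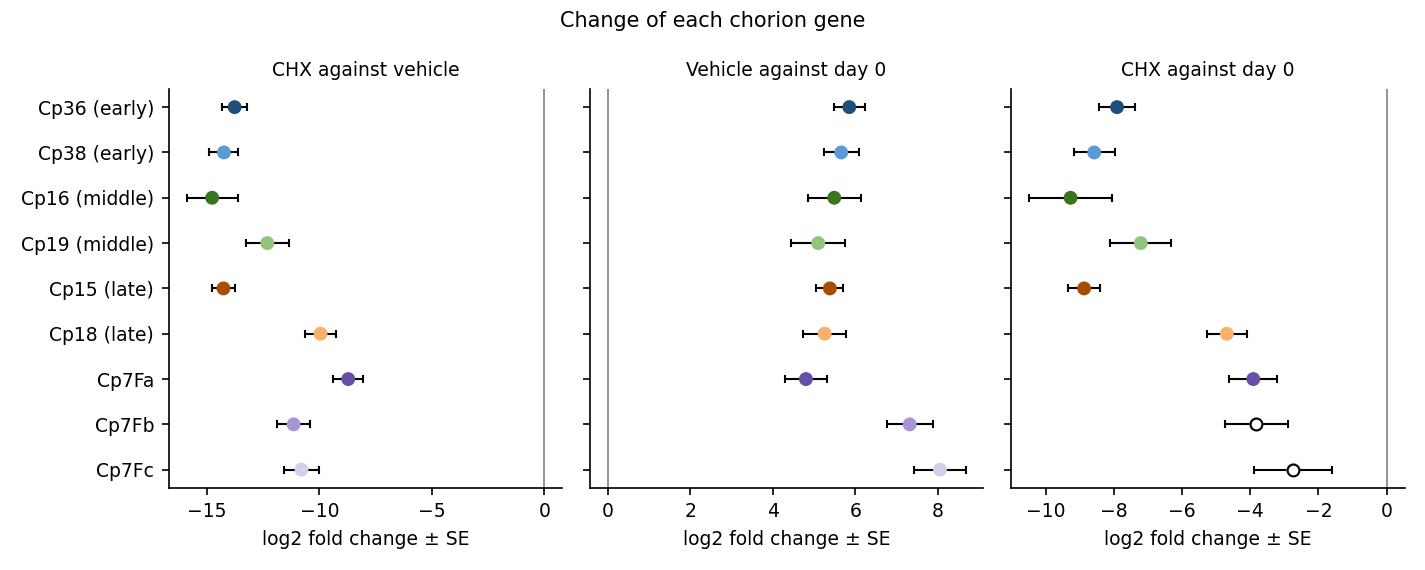
log2 fold change ± SE of each chorion gene in CHX against vehicle, vehicle against day 0 and CHX against day 0 flies (edgeR, 18 libraries), with open points for genes that did not pass an adjusted p of 0.05. Cp7Fb and Cp7Fc rose the most in vehicle flies and are the 2 open points in CHX against day 0.

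The comparison of CHX with vehicle flies, both at day 2, asks what remained of this rise when CHX was fed. All 9 fell. The median of their log2 fold changes was -12.31, against 0.02 over all features. In this comparison 41.3% of all features were called lower, and the members ranked from 2 to 36 by the size of their fall. Under library sizes only, the median of all features moved to -0.53 and that of the members to -12.83, and 36.0% of all calls were higher, against 50.4% under TMM. The vehicle libraries are shared with the comparison above, so that these changes are not independent of it.

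Cp15 had at most 0.149 CPM in CHX flies (13 counts in all 6 libraries), against at least 828 CPM in vehicle flies, a 19560-fold lower level (log2 fold change -14.26 ± 0.51, adjusted p = 3.27e-14, edgeR). Cp38 had at most 0.198 CPM in CHX flies (16 counts), against at least 767 CPM in vehicle flies (log2 fold change -14.23 ± 0.65, adjusted p = 1.73e-12, edgeR). Cp36 had 0.0892 to 0.132 CPM in CHX flies (17 counts), against at least 646 CPM in vehicle flies (log2 fold change -13.76 ± 0.57, adjusted p = 3.31e-13, edgeR). These strongly expressed genes of both clusters were thus left with 2 to 3 counts per library on average in CHX flies.

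Cp16 had 2 counts over all 6 CHX libraries, against 87496 counts in vehicle flies. Its level in CHX flies was lower by a ratio of 35450, with an exact 95% counting interval of 9813 to 292724 that covers counting error only. Cp19, the other middle gene, had 23 counts in CHX flies and a log2 fold change of -12.31 ± 0.96 (adjusted p = 3.27e-09, edgeR). The genes that fell least were Cp18 with -9.95 ± 0.67 and Cp7Fa with -8.71 ± 0.67, which kept 89 and 36 counts in CHX flies (adjusted p = 4.42e-10 and 2.55e-09, edgeR). Cp7Fb with -11.14 ± 0.74 and Cp7Fc with -10.79 ± 0.77 fell more than these and less than Cp19 (adjusted p = 3.98e-10 and 1.06e-09, edgeR).

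Most of the 9 genes were lower in CHX flies than in day 0 flies as well. Of all 11051 features 0.552% were called lower in CHX than in day 0 flies and 0 were called higher, and 7 of the 9 members were among those that fell. The members ranked from 1 to 45 by the size of their fall. The day 0 libraries here are those of the first comparison and the CHX libraries those of the comparison just given.

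Cp15 averaged 0.0813 ± 0.0666 CPM in CHX flies and 40.7 ± 13.7 CPM in day 0 flies (SD, n = 6 each), a log2 fold change of -8.87 ± 0.48 (adjusted p = 8.35e-09, edgeR). Cp38 averaged 0.0950 ± 0.0862 CPM in CHX flies and 38.0 ± 8.86 CPM in day 0 flies, a log2 fold change of -8.58 ± 0.60 (adjusted p = 2.41e-07, edgeR). Cp36 averaged 0.107 ± 0.0154 CPM in CHX flies and 25.98 ± 7.28 CPM in day 0 flies, a log2 fold change of -7.91 ± 0.53 (adjusted p = 1.04e-07, edgeR). Both early genes and this late gene were thus 240-fold to 469-fold lower in CHX than in day 0 flies.

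Cp16 had 2 counts in CHX flies, against 1839 in day 0 flies, lower by a ratio of 828 with an exact 95% counting interval of 229 to 6843. Cp19 had a log2 fold change of -7.21 ± 0.90 (adjusted p = 0.000469, edgeR). The changes of Cp18 and Cp7Fa were smaller, at -4.69 ± 0.59 and -3.91 ± 0.70 (adjusted p = 0.000492 and 0.0133, edgeR). Cp7Fb and Cp7Fc did not pass the test, with -3.82 ± 0.92 and -2.74 ± 1.14 (adjusted p = 0.0955 and 0.851, edgeR). These genes had 219 and 87 counts in day 0 flies, against 13 and 11 in CHX flies, so that a change in them rests on few counts. The model also took its spread from the vehicle libraries. There the SD of log2 CPM was 1.23 and 1.39 for these genes, against 0.58 and 0.42 in day 0 flies and 0.67 and 0.61 in CHX flies. In a fit to CHX and day 0 libraries only, Cp7Fb was called (adjusted p = 0.000165, edgeR) and Cp7Fc did not pass the filter on low counts.

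The number of calls in CHX against day 0 flies varied with the libraries and the tool. It was 7 of 9 among libraries with a hyphen in their name and 3 of 9 among those without. It was 8 in a fit to CHX and day 0 libraries only, where Cp7Fc was not tested, 3 of 9 by limma-voom and 9 of 9 by DESeq2. Without CHX library 2 it was 6 of 9, since Cp7Fa then had an adjusted p of 0.0535, and without vehicle library 2 or 3 it was 8 of 9, since Cp7Fb then had 0.0314 or 0.0124 (edgeR). The 0.552% of all features called lower is from the main run, and that share is not given here for these other runs. The counts thus do not show whether a setting called more or fewer features as a whole.

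The reads that remained in CHX flies were spread over the genes in other proportions than in the rest of the series. Of the 220 member counts in all CHX libraries, 40.5% were from Cp18 (exact 95% interval 33.9% to 47.3%), against 7.41% of the member counts in vehicle flies and 9.58% in day 0 flies. Cp7Fa gave 16.4% in CHX flies (11.7% to 21.9%), against 1.39% in vehicle flies and 2.05% in day 0 flies. Cp15, by contrast, gave 5.91% in CHX flies (3.18% to 9.89%), against 22.5% in vehicle flies and 26.3% in day 0 flies. Cp18 and Cp7Fa, each the gene nearest the start of its cluster on the plus strand, together held 56.8% of the member counts in CHX flies (50.0% to 63.5%), against 8.81% in vehicle flies and 11.6% in day 0 flies. These 2 genes were paired after their counts were seen, as those with the most counts in CHX flies, so their joint share is a description only. The intervals cover counting error only, and the difference in proportions was not tested between libraries.

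To compare genes of different length, levels were also taken per kilobase of exon. In vehicle flies Cp15 was highest of the 9 with 3343 ± 1341 CPM per kb (SD, n = 6), in all 6 libraries above Cp38 with 1697 ± 1149, which was in all 6 above Cp36 with 1441 ± 903. Cp19 (1210 ± 890), Cp16 (916 ± 736) and Cp18 (897 ± 733) came next, and neighbours in this part of the order changed places between libraries. Cp7Fc, Cp7Fb and Cp7Fa were lowest with 118 ± 86.2, 94.7 ± 66.1 and 92.1 ± 79.8 CPM per kb, and changed places too. In day 0 flies Cp15 was again highest with 79.0 ± 26.7 CPM per kb, followed by Cp19 with 32.2 ± 8.39, Cp38 with 30.4 ± 7.09 and Cp36 with 23.3 ± 6.52. Each of the first 3 exceeded the next in all 6 day 0 libraries. In CHX flies Cp18 was highest with 0.930 ± 0.517 CPM per kb, in all 6 libraries above Cp19 with 0.213 ± 0.0963.

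The stage classes were then compared by their share of the summed member counts per kilobase of exon. Early genes had a share of 31.3 ± 13.9% in vehicle flies and 25.5 ± 1.11% in day 0 flies (SD, n = 6 each). Middle genes had 20.3 ± 15.0% in vehicle flies and 24.9 ± 1.61% in day 0 flies. Late genes had 45.3 ± 13.1% in vehicle flies and 47.8 ± 2.33% in day 0 flies. The mean shares in vehicle flies thus differed from those in day 0 flies by less than the spread between vehicle libraries. In CHX flies 19 to 48 counts stand behind each library. There early genes had 9.77 ± 4.70%, middle genes 14.4 ± 6.24% and late genes 58.4 ± 9.93%. The early share, 5.05% to 17.8%, lay below the 24.2% to 26.9% of day 0 libraries. The middle share, 8.66% to 21.8%, also lay below that of day 0 libraries, 23.1% to 27.01%. Both overlapped vehicle libraries, at 14.1% to 52.3% early and 2.67% to 44.7% middle. The late genes did not move together. Cp18 averaged 49.5% in CHX and 10.8% in day 0 flies, whereas Cp15 averaged 8.94% in CHX and 37.01% in day 0 flies.

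**Figure D3:**
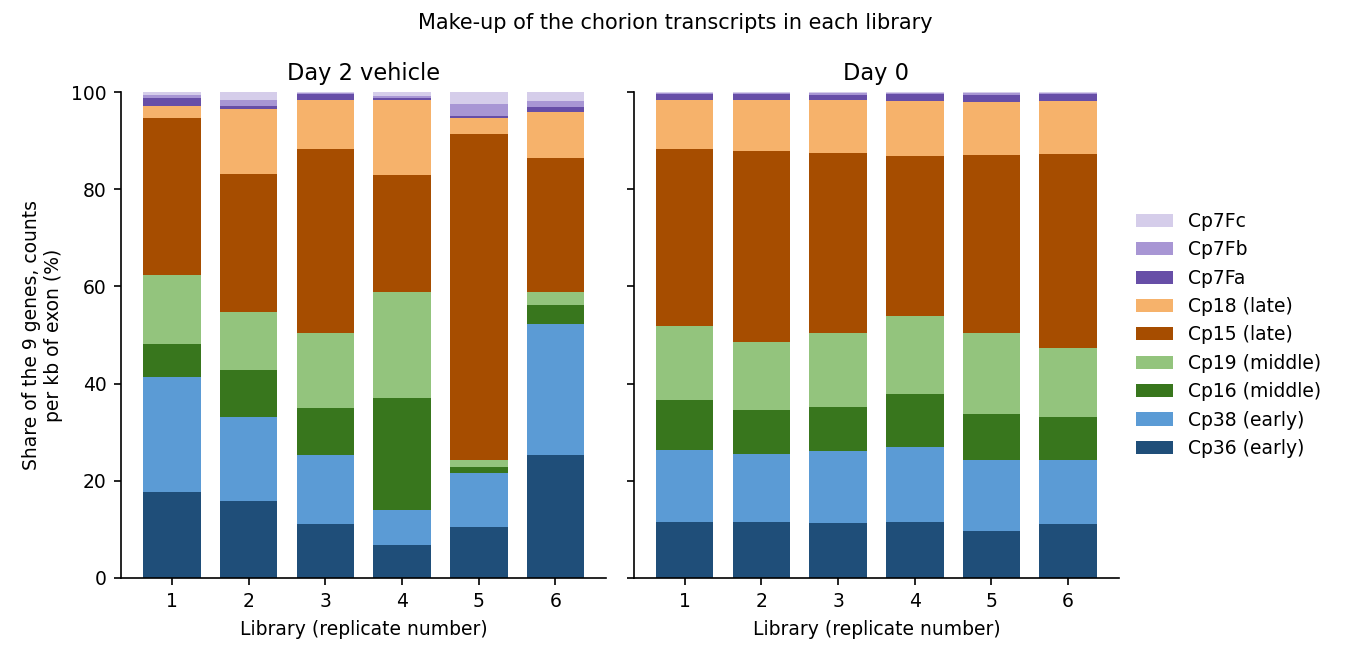
Share of each chorion gene in the summed counts per kb of exon of the 9 genes (%), stacked for each of the 6 day 2 vehicle and 6 day 0 libraries. The early genes (blue) hold 14.1% to 52.3% in vehicle libraries and 24.2% to 26.9% in day 0 libraries.

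Vehicle flies differed from day 0 flies in the variation between libraries. Day 0 libraries held the 9 transcripts in nearly fixed proportions, even though their total differed. Vehicle libraries varied more, and those with the widest departures in the middle class, 4, 5 and 6, are the 3 with no hyphen in their name. Vehicle library 4 had 14.1% early, 44.7% middle and 39.5% late transcripts, and vehicle library 6 had 52.3% early, 6.41% middle and 37.1% late. Vehicle library 5 had 21.6% early, 2.67% middle and 70.4% late transcripts. The hyphenated vehicle libraries 1, 2 and 3 had 21.1%, 21.5% and 25.1% middle transcripts, the first pair below and the other within the 23.1% to 27.01% of day 0 libraries. Their early shares were 41.3%, 33.2% and 25.3%, and their late shares 34.7%, 41.8% and 48.0%. Libraries 1 and 2 thus lay outside the day 0 ranges of the early class (24.2% to 26.9%) and the late class (44.3% to 50.8%) too, so the split by name holds for the middle class only. The unhyphenated libraries did not depart in 1 direction, and the part of the name series in the shares was not tested.

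The same pattern was seen in ratios of single genes. The ratio of Cp16 to Cp15 ran from 0.0168 in vehicle library 5 to 0.963 in vehicle library 4, whereas it was 0.227 to 0.336 over day 0 libraries. Over all 36 pairs of members, the highest ratio divided by the lowest had a median of 19.9 in vehicle flies (1.27 to 120) and of 1.45 in day 0 flies (1.13 to 2.26). It was wider in vehicle flies for 35 of the 36 pairs. The exception was Cp36 to Cp38, the early pair, with 0.668 to 0.846 in vehicle flies and 0.585 to 0.744 in day 0 flies. The widest was Cp7Fc to Cp19, at 0.0229 to 2.76 in vehicle flies.

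Some genes varied together among vehicle libraries. The highest ratio over the lowest was under 4 for 5 of the 36 pairs, namely Cp36 to Cp38 (1.27), Cp7Fb to Cp7Fc (1.90), Cp7Fa to Cp38 (2.702), Cp19 to Cp16 (2.88) and Cp7Fa to Cp36 (3.25), and the next pair, Cp36 to Cp15, had 5.81. Cp36 and Cp38 were above their mean log2 level in libraries 1, 2 and 6 and below it in 3, 4 and 5. Cp16 and Cp19 were low in libraries 5 and 6 only, with Cp19 at 65.4 and 102 CPM there, against 770 to 1323 CPM in the other 4. Cp7Fb and Cp7Fc were lowest in library 3, with 39.0 and 17.6 CPM, and highest in library 2, with 390 and 301 CPM. By these ratios Cp7Fa was closer to the early genes of its cluster than to the adjacent Cp7Fb. It was lowest in library 5, where Cp7Fb had 339 CPM. In libraries 3 and 6, however, Cp7Fa lay on the other side of its mean log2 level from the early genes, by 0.37 and -0.17. The late genes Cp15 and Cp18 did not vary together: Cp18 had its second lowest level, 234 CPM, in library 1, where Cp15 had 2362 CPM.

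**Figure D4:**
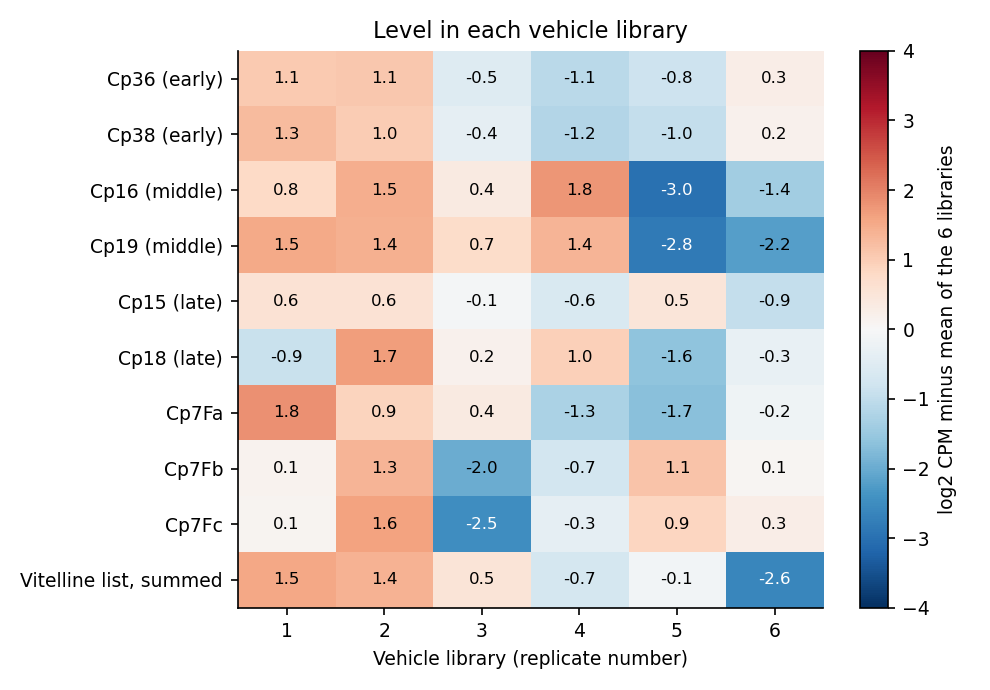
log2 CPM of each chorion gene, and of the 9 measured vitelline membrane and other eggshell genes summed, in each of the 6 vehicle libraries, as the difference from the mean of the 6 (red above, blue below). The middle genes are lowest in libraries 5 and 6, Cp7Fb and Cp7Fc in library 3, and the vitelline sum in library 6.

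The SD of log2 CPM over the 6 libraries puts this on a common scale. In vehicle flies it was 0.655 (Cp15) to 1.98 (Cp19) for the members, with 7 of 9 above 1, while the median of all features was 0.264 and 2.89% of them were above 1. In day 0 flies it was 0.313 to 0.579 for the members, none above 1, with a median of 0.194 over all features. Among day 0 libraries, library 6 had the highest level of all 9 members. Without it, all 9 were still called in vehicle against day 0 flies and 7 in CHX against day 0 flies.

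The hyphenated and unhyphenated names were next compared within a group. Among vehicle flies 1 of 9 members, Cp7Fa, was called, where 6.28% of all features were. Cp7Fa had 102, 145 and 279 CPM in the hyphenated and 25.0, 33.0 and 69.9 CPM in the unhyphenated vehicle libraries, a log2 difference of 2.04 ± 0.38 (adjusted p = 0.00286, edgeR). The early genes had the next smallest p values, with log2 differences of 1.33 ± 0.39 for Cp38 (unadjusted p = 0.00389, adjusted p = 0.0577, edgeR) and 1.12 ± 0.37 for Cp36 (unadjusted p = 0.00782, adjusted p = 0.0919, edgeR), so that 3 of 9 had an unadjusted p under 0.05. For Cp7Fa, the difference of the vehicle against day 0 change between the name series was 2.65 ± 0.57 on the log2 scale (adjusted p = 0.0168, edgeR), in a test that called 3.41% of all features. The count of members called between the vehicle series was 3 without vehicle library 3, 4 or 6 and 2 without library 5. That of the difference was 3 without vehicle library 3, 4 or 6 and 0 without day 0 library 2 or 6. No member was called between the name series in CHX or in day 0 flies, where 0 of 9 also had an unadjusted p under 0.05 by edgeR. Few features of any kind were called there. Of 11051 features, 10 were called higher and 23 lower in CHX flies, and 35 higher and 19 lower in day 0 flies.

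The genes around the clusters were examined next. Of 18 annotated features that reach within 20 kb of a cluster, 15 were tested in vehicle against day 0 flies, of which 7 rose and 3 fell, where 41.8% of all features rose and 41.1% fell. Their log2 fold changes were -4.38 to 3.16, against 4.80 to 8.05 for the members. None of the 15 was called in CHX against day 0 flies, where only 0.552% of all features were called lower. Their log2 fold changes there lay between -0.42 and 0.16. Next to Cp16 on 3L, Prm, which encodes the muscle protein paramyosin, had 148 ± 40.6 CPM in vehicle flies and 3090 ± 346 CPM in day 0 flies, a log2 fold change of -4.38 ± 0.15 (adjusted p = 6.58e-15, edgeR). On the other side of the 3L cluster, CG6511 had a log2 fold change of 1.60 ± 0.14 (adjusted p = 1.75e-09, edgeR).

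Beside the X cluster, otu, a gene needed in the female germline, had 287 ± 28.4 CPM in vehicle flies and 33.5 ± 12.4 CPM in day 0 flies, a log2 fold change of 3.16 ± 0.22 (adjusted p = 1.55e-10, edgeR). CG33223, whose gene body on the minus strand spans the whole X cluster, had 1.57 ± 0.708 CPM in vehicle flies and 0.183 ± 0.125 CPM in day 0 flies, a log2 fold change of 3.07 ± 0.35 (adjusted p = 1.3e-07, edgeR). No source used here says whether reads were counted by strand. CG12116, just before the X cluster, and lncRNA:CR43834, just past it, did not pass the test, with log2 fold changes of -0.38 ± 0.17 and -0.01 ± 0.34 (adjusted p = 0.0511 and 0.983, edgeR).

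**Figure D5:**
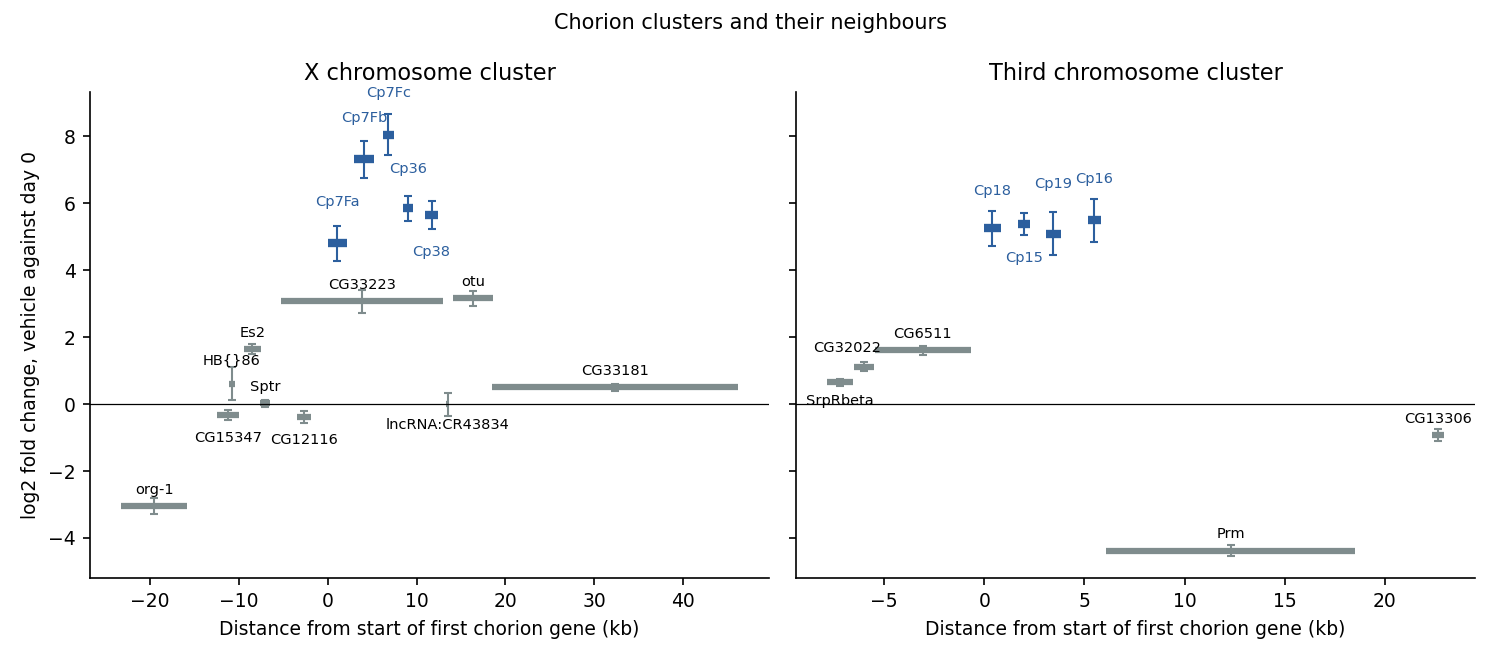
log2 fold change ± SE in vehicle against day 0 flies of the chorion genes (blue) and of the tested features within 20 kb of each cluster (grey), drawn over their extent as distance from the start of the first chorion gene (kb). The chorion genes lie between 4.80 and 8.05, and the features around them between -4.38 and 3.16.

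Other eggshell genes rose in vehicle flies too. Of 9 measured vitelline membrane and other eggshell genes all 9 rose in vehicle against day 0 flies, with a median log2 fold change of 4.81, and all 9 fell in CHX against vehicle flies, with -7.74. The largest changes against day 0 were those of the vitelline membrane genes Vm34Ca (5.44 ± 1.30, adjusted p = 0.00109) and Vm26Aa (5.03 ± 1.05, adjusted p = 0.000322) and of Femcoat (5.07 ± 0.56, adjusted p = 2.6e-07), all by edgeR. Their summed level was 204 to 3664 CPM in vehicle flies, lowest in library 6, where both early chorion genes were above their mean log2 level over the 6 libraries.

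In CHX against day 0 flies, 0 of these 9 genes were called by edgeR, with a median log2 fold change of -2.71, although 3 of the 9 had CHX libraries wholly below those of day 0 flies. Over all features 0.552% were called lower, and 0.986% had CHX libraries wholly below those of day 0 flies. Femcoat had at most 0.299 CPM in CHX flies, against at least 1.13 CPM in day 0 flies, a log2 fold change of -4.24 ± 0.92 (adjusted p = 0.0522, edgeR). Vml had 11 counts in CHX flies, against 335 in day 0 flies, a log2 fold change of -5.02 ± 1.41 (adjusted p = 0.238, edgeR). Vm32E had 1 count, against 225, a log2 fold change of -7.23 ± 2.00 (adjusted p = 0.223, edgeR). These 3 estimates were each larger in size than that of Cp7Fa, -3.91 ± 0.70, so a fall below day 0 is not shown to be particular to the chorion genes. CHX library 5 stood apart here, with 16.9 CPM of Vm26Aa and 22.4 CPM of Vm34Ca, against 0.396 to 0.959 CPM and 0 to 0.448 CPM in the other 5 CHX libraries and 14.5 to 30.9 CPM and 9.39 to 22.6 CPM in day 0 flies. Its chorion transcripts were in sum as scarce as in the other CHX libraries, with 31 counts of the 9 genes in a group range of 19 to 48. It had 0.0892 CPM of Cp36 and no count of Cp38, Cp15 or Cp16, but the highest Cp7Fc level of the group, 0.223 CPM. Without that library 2 of the 9 vitelline list genes were called lower, with a median of -4.72, and 7 of 9 chorion genes. Among all features, 65 were called lower in that run.

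Genes of eggshell crosslinking did not move as a group. yellow-g2 and yellow-g, needed for a rigid eggshell, rose in vehicle against day 0 flies by 6.01 ± 0.50 and 4.65 ± 0.37 on the log2 scale (adjusted p = 7.08e-09 and 3.25e-09, edgeR). Like Cp7Fb and Cp7Fc, both were highest in vehicle library 2, with 388 and 331 CPM, and lowest in library 3, with 63.4 and 57.6 CPM. Pxd, which encodes a peroxidase, fell by 9.49 on the log2 scale (SE 0.26, adjusted p = 1.27e-16, edgeR), to at most 0.280 CPM in vehicle flies, against 68.4 to 181 CPM in day 0 flies and 80.5 to 170 CPM in CHX flies. In CHX against day 0 flies 0 of the 5 genes of this list were called, where 0.552% of all features were called lower. There yellow-g had a log2 fold change of -0.25 ± 0.35 (adjusted p = 0.999, edgeR).

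Genes of the machinery that amplifies the clusters had smaller log2 fold changes than any of the 9 members. Of 18 tested genes of origin licensing and gene amplification all 18 rose in vehicle against day 0 flies, with a median log2 fold change of 2.51, and all 18 fell in CHX against vehicle flies, with -2.79. SuUR, also listed, had no count in any library and was not tested. Orc1, a subunit of the origin recognition complex, had the largest change, 3.47 ± 0.16 (adjusted p = 2.16e-13), followed by CycE, a cyclin of S phase entry, with 3.45 ± 0.16 (adjusted p = 3.35e-13), and Orc2 with 3.29 ± 0.17 (adjusted p = 1.54e-12), all by edgeR. In CHX against day 0 flies 3 of the 18 fell, where 0.552% of all features were called lower. Among the 3 were Orc1 (-1.09 ± 0.15, adjusted p = 0.000655, edgeR) and CycE (-0.81 ± 0.15, adjusted p = 0.0126, edgeR). The genes of this list are also used by other dividing cells.

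All 8 tested genes of the E2F, Rbf and Myb complexes, which act at the amplified origins, rose in vehicle against day 0 flies, with a median of 1.47, led by mip120 (1.82 ± 0.11, adjusted p = 1.18e-11, edgeR). Myb itself was listed too, but had no count in any library and was not tested. Reads without a single feature were left out of the counts, so rows without a count do not show that Myb or SuUR was silent. Of 12 transcription factors of follicle cells 6 rose and 3 fell, with a median of 0.22, and mirr had the largest change at -1.64 ± 0.15 (adjusted p = 5.04e-09, edgeR). Of 9 tested germline and oocyte genes 8 rose, with a median of 2.02, led by bcd, a maternal patterning gene (4.09 ± 0.17, adjusted p = 8.04e-14, edgeR). The smallest log2 fold change among the chorion genes, 4.80, was thus above the median of each of these lists, and the background of 41.8% of features called higher applies to their counts too. The summed level of the yolk protein genes was 5254 to 10602 CPM in CHX flies, 9482 to 25887 CPM in vehicle flies and 4178 to 8452 CPM in day 0 flies.

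The 5 genes outside the clusters most like the mean log2 level of the members over the 18 libraries were Muc12Ea, CG4009, CG13084, CG13083 and CG32642, with Pearson correlations of 0.994, 0.993, 0.993, 0.993 and 0.990. Because the libraries of each group share the large difference between groups, such values are a description only. Muc12Ea averaged 0.0276 CPM in CHX flies, 85.2 CPM in vehicle flies and 2.10 CPM in day 0 flies. CG4009 had no count in CHX flies and averaged 164 CPM in vehicle flies and 1.86 CPM in day 0 flies. Over the 6 vehicle libraries alone, the members themselves correlated with their own mean at only 0.314 (Cp7Fb) to 0.800 (Cp36). The 5 most similar genes were sand, CG11912, CG15515, CG43134 and CG33946, at 0.955 to 0.974, none of which was among the 5 above. They were picked as the highest of all features over only 6 libraries, so these values are a description only and not comparable with those of the members. CG15515 had at most 0.453 CPM and CG33946 at most 1.06 CPM in vehicle flies.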

How the data were processed

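Whole-fly RNA was sequenced in 18 libraries, 6 per group, with groups taken from the labels. The deposited table gives raw counts for each feature as whole numbers. Build BDGP6, HTSeq 0.12.3, STAR 2.7.10a and bcl2fastq 2.18.0.12 are named in the submitters' processing notes. The sources used here do not give settings or the use of strand. Rows for reads without a single feature (8.46% to 11.65% of a column) were left out, and 0 columns of samples were unused. Names and positions came from Ensembl (BDGP6). Of 103 listed symbols 2 did not match.

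For the tests, edgeR 4.0.16 in R 4.3.3 was run with TMM scaling after filterByExpr. The robust quasi-likelihood model held all 18 libraries and had terms for group and name series, and p-values were adjusted by Benjamini-Hochberg over 11051 features. The SE is the absolute log2 fold change over the root of F. The contrasts of name series used a fit with 6 cells. Log2 CPM used a prior count of 2. The procedure was tested on simulated data. Within a group, no pair of libraries had a chi-square per degree of freedom below 11.3, so none looked like a duplicate. DESeq2 1.42.0, limma 3.58.1 (voom), other scalings, filters, designs and libraries left out were tried. Members and lists were chosen with earlier results of these data known. Genes named besides the members are features within 20 kb of a cluster, up to 3 per list with the largest change in vehicle against day 0 flies, and the 5 most correlated. Vm32E and Vml, Vm34Ca and Vm26Aa by library, the vitelline count without CHX library 5 and the ratios of member pairs were chosen after their values were seen. So was the joint share of Cp18 and Cp7Fa. Myb and SuUR are named as listed genes without a count. Marker lists were yolk, muscle, male, neuron and eye, fat body and gut. Python 3.11.15 with matplotlib 3.10.9 drew the figures.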

Additional observations from a re-analysis of the deposited data

Results flagged for a closer look

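Within the 6 libraries of a group, 1 library lay far from the others for 6 of 27 combinations of gene and group. The rule would flag about 1 in 20 by chance if values were normally spread. CPM need not be, least of all on the few counts of CHX flies, so that rate is no measure here. Each flagged value was the highest of its group. In day 0 flies this was library 6 for Cp36 (40.3 CPM), Cp18 (23.4 CPM), Cp15 (67.5 CPM) and Cp16 (15.3 CPM). The genes share that library, so these are not separate events. In CHX flies it was library 1 for Cp18 with 1.25 CPM (25 counts) and library 5 for Cp7Fc with 0.223 CPM (5 counts).

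The change of Cp7Fa in vehicle against day 0 flies differed between libraries with and without a hyphen in their name, by 2.65 ± 0.57 on the log2 scale (adjusted p = 0.0168, edgeR, 3 libraries per cell). The labels do not say what the names mark.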

How the results depend on the processing

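All 9 members kept their direction and call in vehicle against day 0 and in CHX against vehicle flies under every alternative run. In CHX against day 0 flies no direction changed, and the count of 7 became 3 with unhyphenated libraries only and 3 by limma-voom. It became 8 with only the CHX and day 0 libraries in the fit, where Cp7Fc was not tested. Leaving out 1 library gave 6 to 8 members there, 9 in each of the other comparisons, 1 to 3 between the vehicle name series and 0 to 3 for the difference of the vehicle against day 0 change between series. That last count was 0 with no filter beyond 1 count and 0 by limma-voom, against 1. With the replicate number as a block the counts were 9, 9 and 7, unchanged. Same-numbered libraries correlated at -0.29 to 0.545 in their deviations, over 0.1 in 6 of 18 pairs and best with their own number in 2 of 18, so the numbers were not taken to pair samples.

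Shares depend on dividing by length. From raw counts the early share was 46.0% in vehicle and 41.2% in day 0 flies, the middle share 20.3% in day 0 flies, the late share 46.5% in CHX, 32.02% in vehicle and 35.4% in day 0 flies, and the X cluster share 41.9%, 51.9% and 44.4% in CHX, vehicle and day 0 flies. With coding length the middle and late shares in day 0 flies were 22.9% and 50.5%. Without Cp7Fa, Cp7Fb and Cp7Fc the late share in CHX flies was 71.0%. Depth limits the CHX group most, where single members had 2 to 89 counts over 6 libraries.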

Other observations

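The yolk protein genes Yp1, Yp2 and Yp3, made in fat body and follicle cells, rose less than the chorion genes in vehicle against day 0 flies, with log2 fold changes of 1.25 ± 0.22, 0.60 ± 0.23 and 2.31 ± 0.36 (adjusted p = 4.7e-05, 0.0235 and 1.54e-05, edgeR). None of the 3 was called in CHX against day 0 flies, with values of 0.24, 0.10 and -0.02, where 0.552% of all features were called lower. The 4 genes of digestive enzymes of the gut all rose in vehicle against day 0 flies, with a median of 1.60. Of 5 genes of neurons and the eye 4 fell, with a median of -1.87. Of 4 fat body genes the 3 that fell, Lsp2 (-4.38 ± 0.97), Fbp1 (-13.84 ± 0.38) and Fbp2 (-11.17 ± 0.42), are known from the larval fat body (adjusted p = 0.000526, 1.83e-16 and 5.41e-14, edgeR). The fourth, apolpp, a lipoprotein gene of the fat body, had 0.40 ± 0.57 (adjusted p = 0.527, edgeR). Over all features 41.8% rose and 41.1% fell in this comparison.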
